A study of Mus musculus with 4 samples.

Results

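Tagged NR6A1 had 10 peak regions in a 90 kb window of mouse chromosome 17 labelled Srsf3 to Cdkn1a (29160000 to 29250000 on build mm9). Of these regions, 6 form a tight cluster found in both replicates. The window's peaks are all peaks of the 2 deposited NR6A1 lists whose midpoint lies in it, 9 of 21507 in replicate 1 and 9 of 16160 in replicate 2. Merged where they overlap, they make 10 regions, of which 8 were in both lists, out of 9009 shared regions in all. The members were chosen by the measured positions of the peaks and by their presence in both lists, so their number, sharing and scores are given as a description, without a test.

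The peaks come from chromatin immunoprecipitation followed by sequencing (ChIP-seq), which locates the genomic sites where a protein sits. Both NR6A1 libraries were made from an immortalized, monoclonal line of C57BL/6 mouse mesenchymal stem cells with floxed, intact Dicer alleles (Dicer f/f, called Dicer WT), infected with a puromycin-selected retrovirus for Flag-HA-NR6A1 and precipitated with an antibody to HA. The 2 vector libraries came from the same kind of Dicer f/f cells with the empty retrovirus and the same antibody, and their values were not analysed here. NR6A1 was therefore retrovirally expressed in cells of clonal origin, and the antibody's background in cells without the tag is not set beside the values. The labels number the NR6A1 libraries as replicates without saying whether they came from separate cultures. The series asked which genes NR6A1 binds directly in these cells.

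NR6A1, also called germ cell nuclear factor, is an orphan nuclear receptor that binds direct repeats of the half-site AGGTCA with no spacer, and it is known as a repressor of pluripotency and germ cell genes. Cdkn1a encodes p21, an inhibitor of cyclin-dependent kinases that halts the cell cycle and is a classical target of the tumour suppressor p53. Srsf3 encodes a serine- and arginine-rich factor that regulates RNA splicing. In the RefSeq gene table, which is of build GRCm38.p6, Srsf3 is followed by the long noncoding RNA genes Gm41556 and Trp53cor1, then by Cdkn1a and by Rab44. Trp53cor1, or lincRNA-p21, is a long noncoding RNA induced by p53. The builds number the bases differently, and positions were not moved between them. The distance of each peak to the start of Cdkn1a is therefore not given, and it was not examined which peaks lie upstream of the gene and which lie within it.

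The start-site sequences of Srsf3 and Cdkn1a, the protein-coding genes that name the window, are shown because the label ties the peaks to them. The bounds of the window are round positions and not the starts of these genes. Each runs from 250 bases before to 50 bases after a RefSeq start on GRCm38.p6, on the plus strand. Capitals mark matches to AGGTCA, or to a pair of CATG cores with 6 bases between them, the spacing of the cores in a p53 element.
Cdkn1a, upstream start, chr17:29090729-29091028: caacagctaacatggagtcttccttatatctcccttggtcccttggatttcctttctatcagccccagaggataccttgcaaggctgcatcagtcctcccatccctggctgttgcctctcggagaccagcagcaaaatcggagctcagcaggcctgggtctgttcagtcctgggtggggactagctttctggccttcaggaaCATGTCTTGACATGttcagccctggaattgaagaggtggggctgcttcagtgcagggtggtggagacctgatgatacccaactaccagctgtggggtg
Cdkn1a, downstream start, chr17:29093519-29093818: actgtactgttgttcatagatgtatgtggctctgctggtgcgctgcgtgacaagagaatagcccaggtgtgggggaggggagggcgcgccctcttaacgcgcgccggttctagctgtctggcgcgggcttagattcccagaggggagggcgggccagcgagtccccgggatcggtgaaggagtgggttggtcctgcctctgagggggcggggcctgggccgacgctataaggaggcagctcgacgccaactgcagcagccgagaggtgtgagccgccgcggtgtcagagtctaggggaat
Srsf3, chr17:29032410-29032709: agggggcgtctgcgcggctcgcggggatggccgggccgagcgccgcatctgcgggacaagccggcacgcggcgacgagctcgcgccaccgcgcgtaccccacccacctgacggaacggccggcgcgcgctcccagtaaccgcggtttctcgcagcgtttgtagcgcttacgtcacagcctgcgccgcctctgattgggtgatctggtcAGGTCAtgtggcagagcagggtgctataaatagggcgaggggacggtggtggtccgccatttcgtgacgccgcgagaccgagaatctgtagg

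Both strands were searched for AGGTCA, for TCAAGGTCA, for the direct repeat of AGGTCA with no spacer, which contains the shorter forms, and for the paired CATG cores. Neither Cdkn1a sequence held AGGTCA or a longer form of it, and the Srsf3 sequence held AGGTCA once. Among all 32851 RefSeq start-site sequences of this length, 16.3% held AGGTCA, 0.423% held TCAAGGTCA and 0.00609% held the direct repeat. The upstream Cdkn1a sequence held the paired CATG cores once, as did 0.712% of all the sequences at least once. The search for these cores was added after the sequences were seen, so nothing is read from how rare the match is. The downstream Cdkn1a sequence held none of these letters and is richer in G and C, at 64.7% against 54.7% for the upstream one, with 23 CG dinucleotides against 2. The table has 2 of the 4 genes from Srsf3 to Cdkn1a. A match is a description of letters, and the peaks' own sequences were not read.

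The regions are numbered 1 to 10 along the chromosome, from the Srsf3 end of the window to its Cdkn1a end. Region 1, at 29162007 to 29162484, was in replicate 1 only, and region 3, at 29190667 to 29191220, was in replicate 2 only. The others were in both lists, so 8 of 9 peaks of each replicate, or 88.9%, had a partner that they overlapped. Over the whole lists the share with a partner was 42.7% in replicate 1 and 56.0% in replicate 2. Because the window was chosen for its shared peaks, nothing is read from that difference.

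The authors' score of a peak is read here as a log-transformed p-value from the peak caller, and a higher score is a stronger call against the background of that library. It starts just above 200 in both lists. Its values depend on the depth of each library, which is unknown from these lists, so a score mainly serves to place a peak within its own list. Ratios of scores between the lists, where given, are of the deposited values and include any difference in depth or background. The value 3100 recurs, at 239 replicate 1 peaks and 187 replicate 2 peaks, and is treated as a ceiling, although 26 replicate 1 and 24 replicate 2 peaks lie above it. A ratio that involves 3100 is therefore not read as an exact fold.

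The cluster spans 17.4 kb, from 29183882 to 29201307, and holds regions 2, 4, 5, 6, 7 and 8. It begins 23.9 kb above the lower bound of the window and ends 48.7 kb below the upper bound, which is a round position set by the window and not the start of Cdkn1a. Region 2 stands a little apart at the Srsf3 end, at 29183882 to 29184543. It scored 321.24 in replicate 1 and 389.24 in replicate 2, below the median of each list. Region 3, the peak of replicate 2 alone, lies inside the cluster's span with a score of 368.51, below the replicate 2 list median of 394. The median score of peaks without a partner was 314 in replicate 2.

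The other 5 regions of the cluster make a compact core of 8.22 kb, from 29193088 to 29201307. Region 4, at 29193088 to 29193824, scored 434.68 in replicate 1 and 1152.79 in replicate 2, where it was the highest peak of the window. Region 5, at 29194770 to 29195451, scored 942.04 in replicate 1 and 846.16 in replicate 2. They are neighbours, and region 5 had rank 3 in the cluster in both lists.

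Region 6, at 29197560 to 29198454, scored 3100 in replicate 1 and 687.10 in replicate 2. In replicate 1 it is one of the peaks at the ceiling and the highest of the window, with 98.8% of the list below it, and in replicate 2 it had rank 4 in the cluster, with 75.4% of the list below it. Region 7, at 29199331 to 29199950, scored 219.97 in replicate 1 and 307.99 in replicate 2, the lowest of the window in both. In replicate 1 it is close to the lowest score in that list, 200.01, and 7.42% of replicate 1 peaks scored below it. Region 8, at 29200494 to 29201307, scored 1080.89 in replicate 1 and 1009.63 in replicate 2. It is the one shared region of the window with both scores at 1000 or more, that is 1 of 8 pairs, where 10.8% of all 9223 partner pairs had such scores.

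**Figure D1:**
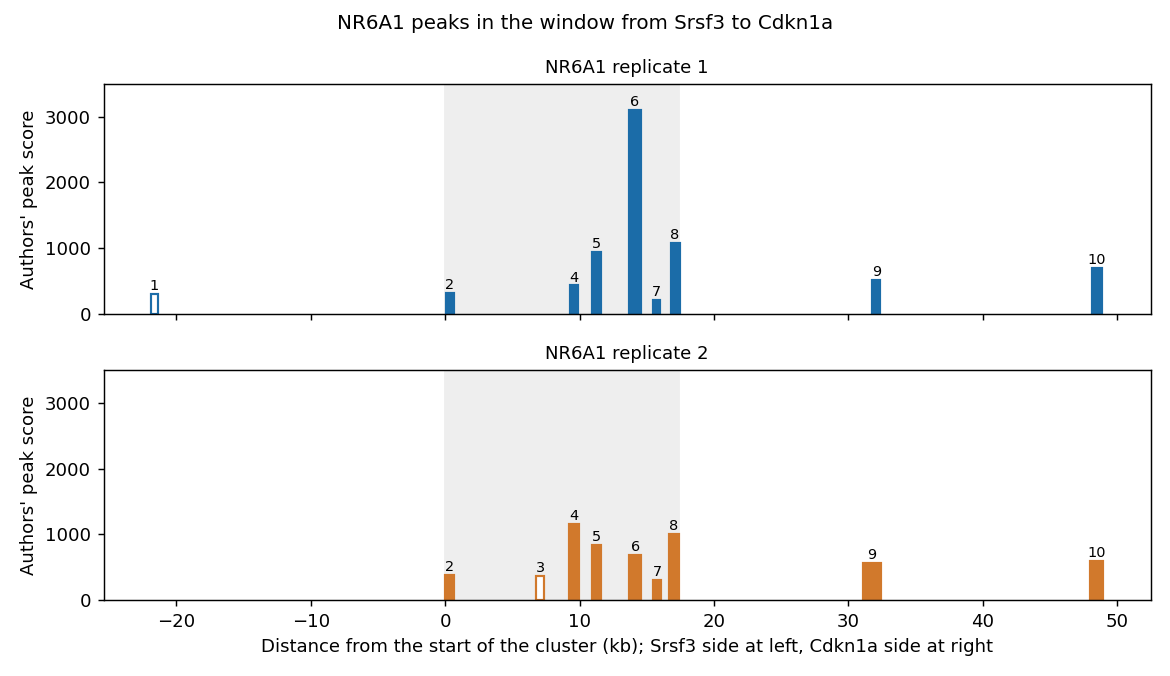
Authors' score (vertical axis) of each NR6A1 peak in the window, by distance in kb from the start of the cluster (horizontal axis), with replicate 1 above and replicate 2 below. Bars are drawn at the peaks' own width, filled where the region was in both lists and open where it was in 1 list, with the region's number on top, and grey shading marks the 17.4 kb cluster. Region 6 reaches 3100 in replicate 1 and 687.10 in replicate 2, while regions 5, 8, 9 and 10 stand at like heights in both.

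Toward the Cdkn1a end, 2 shared regions follow at wider spacing. Region 9, at 29214981 to 29216295, scored 522.06 in replicate 1 and 563.17 in replicate 2. Its peak was 587 bp wide in replicate 1 and 1315 bp wide in replicate 2, and the midpoints lay 313 bp apart, the largest offset in the window. Region 10, at 29231858 to 29232811, scored 699.87 in replicate 1 and 596.39 in replicate 2, and its midpoint lies 17.7 kb from the upper bound of the window. Both regions scored above the median of each list. At the other end, region 1 scored 301.64 in replicate 1, below the median of 363 for replicate 1 peaks without a partner.

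Spacing was tightest at the Cdkn1a end of the cluster. The midpoints of regions 7 and 8 lay 1.26 kb apart, those of regions 6 and 7 lay 1.63 kb apart, and those of regions 4 and 5 lay 1.65 kb apart. Regions 5 and 6 were 2.90 kb apart. Region 2 preceded region 4 by 9.24 kb, with a gap of 8.54 kb between their edges, just under the 10 kb used to join regions into a cluster. Region 9 lay just outside, with a gap of 13.7 kb after region 8, and region 10 followed region 9 after a gap of 15.6 kb. Region 1 lay 21.4 kb before region 2.

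Peaks covered 3807 bp of the cluster in replicate 1 and 4364 bp in replicate 2, counting regions in both lists, which is 21.8% and 25.0% of its span. The rest of the span lay between the peaks and was not called in both lists. In the window replicate 2 had the wider peak in 8 of 8 pairs, and it had it in 70.6% of all pairs. Midpoints of partners lay a median of 35.5 bp apart in the window and 37.5 bp apart over all pairs. In 7 of 8 pairs they lay within 100 bp, against 81.3% of all pairs.

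The lists differed on the highest region of the cluster and ranked 4 of its 6 regions alike. Region 8 had rank 2, region 5 rank 3, region 2 rank 5 and region 7 rank 6 in both. Region 6 had rank 1 in replicate 1 and rank 4 in replicate 2, and region 4 had rank 4 in replicate 1 and rank 1 in replicate 2. By place in its own list, region 4 stood above 52.1% of replicate 1 peaks and above 88.9% of replicate 2 peaks. Its deposited score was 2.65-fold higher in replicate 2 (log2 ratio of replicate 1 over replicate 2 of -1.41), and 19.5% of all pairs differed by as much or more in either direction. The deposited score of region 6 was higher in replicate 1, where it is at the ceiling, so that difference is not given as a fold. With the value 3100 taken as it stands, 6.18% of all pairs differed by as much or more in either direction. Regions 5 and 8 held like places, above 82.4% and 86.1% of replicate 1 peaks and above 81.7% and 86.2% of replicate 2 peaks. Region 7 stood above 7.42% of replicate 1 peaks and above 34.2% of replicate 2 peaks. The other 6 pairs of the window had log2 ratios from -0.49 to 0.23, so 6 of 8 pairs were within 2-fold of each other, where 65.4% of all pairs were. Regions 4 and 6 lie in the same core, and their differences run in opposite directions.

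Over the 8 shared regions the median log2 ratio of the deposited scores was -0.01, and over all 9223 pairs it was 0.00. Replicate 1 had the higher score in 4 of 8 pairs, and in 49.7% of all pairs. With 1 list for each replicate, the difference at a single region has no error estimate of its own.

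**Figure D2:**
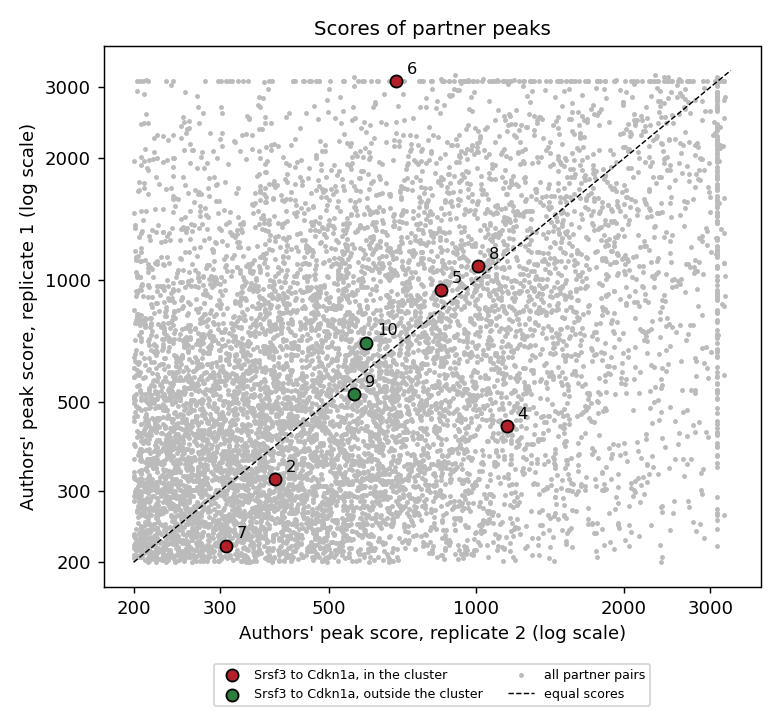
Authors' score in replicate 1 (vertical axis) against replicate 2 (horizontal axis), both on log scales, for the 8 shared regions of the window, numbered, and for all 9223 partner pairs in grey. Red points are in the cluster, green points are outside it, and the dashed line marks equal scores. Regions 4 and 6 lie more than 2-fold from the line on opposite sides, and the other 6 lie within 2-fold of equality.

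Within their own lists the window's peaks were spread over weak and strong calls. The median score of the 9 peaks was 522 in replicate 1 and 596 in replicate 2, where the medians of the whole lists were 417 and 394. The whole lists include the peaks without a partner, whose medians were lower, 363 in replicate 1 and 314 in replicate 2. Because the window was chosen for its shared peaks, its higher medians are not read as a result. In each replicate 6 of the 9 peaks scored above the list's median. Scores of 1000 or more were reached by 2 of the 9 peaks in each replicate, where 15.9% of all replicate 1 peaks and 14.0% of all replicate 2 peaks reached them. In replicate 2 the highest score of the cluster was 3.74 times the lowest, and in replicate 1 the highest is at the ceiling, so no ratio is given.

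The nearest peaks outside the window are given for each list, without a comparison to the usual distance between neighbouring peaks. In replicate 1 the next peak below it, at 29062039 to 29062520 with a score of 439.27, lay 100.0 kb from region 1. In replicate 2 the next one overlaps it, at 29061832 to 29062775, with a score of 3100, and lay 122 kb from region 2. Above the window, the next replicate 1 peak was at 29293695 to 29294186 with a score of 500.52, and lay 61.6 kb from region 10. The next replicate 2 peak was at 29492864 to 29493544 with a score of 292.87, at 261 kb. Outside the window, the nearest peak midpoint of either list lay 43.9 kb from a bound. Inside it, region 1 lay 2.25 kb from the lower bound.

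Among all clusters of shared regions joined over gaps of at most 10 kb, this was the most compact of those with exactly 6 regions. There were 292 clusters with 3 or more regions, which held 11.0% of all shared regions, and 11 of them had 6 or more. Of the 8 clusters with exactly 6, it had the shortest span, 17.4 kb, and the others reached 32.1 kb with a median of 27.9 kb over the 8. Some clusters of 5 regions were shorter, such as one of 7.53 kb on chromosome 1 and one of 7.96 kb on chromosome 3. On chromosome 17 the cluster of the window was one of 2 clusters with 6 regions, the highest number among the 18 clusters there. The core was made by leaving out region 2, the outlying region of this cluster, so its short span follows in part from that choice. Of 8926 runs of 5 consecutive shared regions on one chromosome, 4 spanned 8.22 kb or less, the core included. The median run spanned 569 kb. In tiles of 90 kb laid from the window's own start, 11 of 11377 tiles with any peak, or 0.0967%, held 8 or more shared regions. Since the window was selected for its peaks, its place in these rankings is a description.

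**Figure D3:**
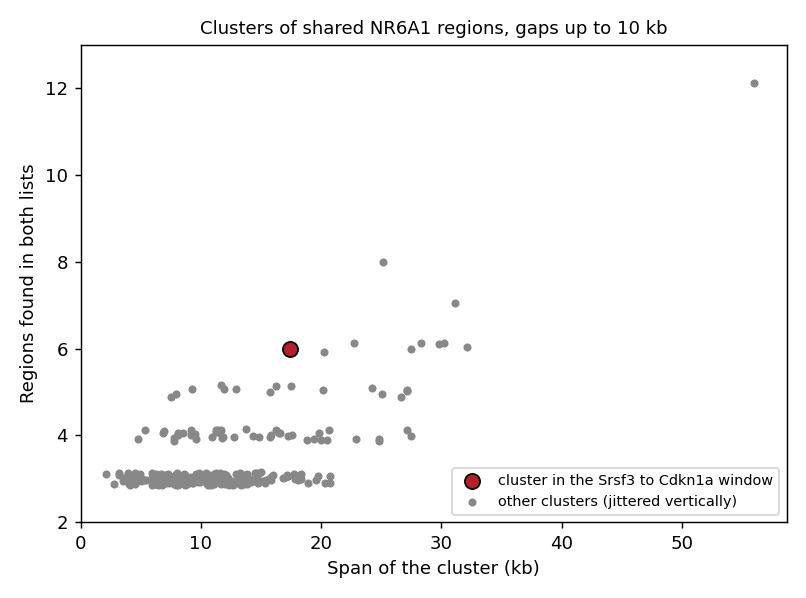
Number of regions found in both lists (vertical axis) against the span in kb (horizontal axis) for the 292 clusters of 3 or more shared NR6A1 regions joined over gaps of at most 10 kb. The red point is the cluster in the Srsf3 to Cdkn1a window, with 6 regions in 17.4 kb, at the left end of the clusters with 6 regions. Grey points are the other clusters, moved slightly up or down so that they do not hide each other.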

How the data were processed

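Tagged NR6A1 was measured by ChIP-seq in 2 libraries, each with 1 deposited peak list, so peaks were called per sample. Per the submitters' processing notes, the tools were Bowtie 0.12.7 and MACS and the build was mm9, with no role given to any of them. The control library, the MACS version and the threshold for a peak are not given in the sources used here. The authors' deposited lists hold a position and a score for each peak and do not say how the score was computed. Read depth is unknown, and no fold enrichment was computed.

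A pair of peaks sharing 1 bp or more counted as partners. The overlaps were found in Python 3.11.15 (pandas 2.3.3, numpy 2.4.6), and bedtools 2.31.1 gave the same counts. Partners were merged into regions, and regions with gaps of at most 10 kb were joined into clusters. Overlap and joining were tested on simulated lists with known sites on a single chromosome. Shared sites there always overlapped and other sites never did, so this checks the code and not the choice of settings. Positions count from 1. Every peak of the window and the genes from Srsf3 to Cdkn1a are named by rule. The search for paired CATG cores was added after the sequences were seen. The members and lists were chosen with earlier results of these data known. Distances to genes, sequences of peaks and other cell cycle loci need an mm9 annotation and were not analysed here.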

Additional observations from a re-analysis of the deposited data

How the results depend on the processing

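Across the alternatives 25 values were recomputed, of which 21 stayed within their limits and 4 moved, with no reversal. The limits were 1.5-fold for a count, so that 6 peaks against 9 or 4 regions against 6 are within it, and the SD of 1.01 among the regions for the median log2 ratio of scores. That SD is the spread of single regions, includes region 6 at the ceiling, and is a wide limit for a median. The span of the cluster, 17.4 kb with 6 regions as reported, was 8.22 kb with 4 regions in the upper 50% of each list by score, 8.22 kb with 5 regions at gaps of at most 5 kb, and 48.9 kb with 8 regions at gaps of at most 20 kb. In the upper 50%, regions 2 and 7 were removed by their scores before any joining. At the changed gap limits, the moves follow from which regions are joined. When peaks of 1 list were chained alone, the cluster held 6 peaks over 17.3 kb in replicate 1 and 7 over 17.4 kb in replicate 2. The limit for the span was the SD between those lists, 0.0424 kb, so even the smaller of these spans counts as moved. The window held 7 shared regions with an overlap of at least 50% of both peaks or with midpoints within 100 bp, the settings under which region 9 has no partner, and 6 in the upper 50%. Each replicate kept 6 of its 9 peaks in the upper 50%. The median log2 ratio of scores, -0.01 as reported, was between 0.10 and 0.13 under the alternatives that use scores, and the same measure on percentile ranks was -0.07. No paired analysis was possible because the vector libraries that share the replicate numbers were not analysed here. The planned distances to Cdkn1a, the motif search in peaks and the count of other cell cycle loci were not run, because they need mm9 annotation or sequence. A peak missing from 1 list cannot be told from a peak just under its threshold.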
